A study of Mus musculus with 4 samples.

Results

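Target genes and regulators of the Hippo pathway and of serum response factor (SRF) were compared in IMS32 Schwann cells deprived of pyruvate. The genes were Yap1, Wwtr1, Lats2, Amotl2, Ajuba, Ctgf, Cyr61, Ankrd1, Srf and Vcl, taken by name from the array design, and they make up 10 of the 31087 gene names and 13 of the 39418 probes analysed. Ctgf and Cyr61, both secreted proteins of the CCN family, had lower signals in the arrays without pyruvate at each glucose concentration, by 1.87-fold and 1.87-fold for Ctgf and by 1.43-fold and 1.38-fold for Cyr61. Ankrd1 was lower by 1.39-fold at 15 mM glucose, from a dim probe, and the other 7 genes differed by at most 0.24 on the log2 scale in either pyruvate comparison. The genes were selected on their log2 signals in all 4 conditions, with these values known, and each condition has 1 array, so all values below are descriptions and none has a test.

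The cells are an immortalized line of mouse Schwann cells, the glia that ensheathe peripheral axons, and as a cell line they stand in for Schwann cells without axons or the other cells of a nerve. They were kept for 1 h in DMEM with 5% FBS, which all conditions share. The [Glc 5 mM/Pyr (+)] group received 5 mM glucose and 1 mM pyruvate, and the [Glc 5 mM/Pyr (−)] group the same glucose without pyruvate. The [Glc 15 mM/Pyr (+)] group received 15 mM glucose and 1 mM pyruvate, and the [Glc 15 mM/Pyr (−)] group 15 mM glucose without pyruvate. Total RNA of each group was labelled with Cy3 and hybridized to a single-colour array, so n = 1 throughout. In such bulk RNA, fewer cells that express a gene and less of its RNA per cell cannot be told apart.

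The Hippo pathway is a kinase cascade that holds the coactivators YAP (encoded by Yap1) and TAZ (encoded by Wwtr1) in the cytoplasm. When the kinases are quiet, as in cells that are spread and under tension, YAP and TAZ enter the nucleus and act with TEAD transcription factors on genes such as Ctgf, Cyr61 and Ankrd1. SRF works beside them: with the actin-regulated MRTF cofactors it drives cytoskeletal genes such as Vcl, and with ternary complex factors it drives immediate-early genes. In Schwann cells, YAP and TAZ are needed for radial sorting of axons and for myelination.

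The promoters of 4 of the genes are shown because they hold the binding motifs of the factors named above, TEAD in Cyr61 and Ankrd1 and SRF in Srf and Vcl. Each line gives the 250 bases before the transcription start in the RefSeq table of GRCm38.p6, 5′ to 3′ on the strand of the gene, with motif matches in capitals. The TEAD motif was searched as GGAATG on either strand, so that CATTCC marks a match on the opposite strand, and the SRF motif as the CArG box.
Cyr61, chr3:145649986-145650235, minus strand: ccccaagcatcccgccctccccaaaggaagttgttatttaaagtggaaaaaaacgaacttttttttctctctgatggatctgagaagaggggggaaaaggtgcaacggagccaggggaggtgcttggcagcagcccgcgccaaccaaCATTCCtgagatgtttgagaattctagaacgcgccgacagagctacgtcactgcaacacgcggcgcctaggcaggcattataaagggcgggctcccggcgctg
Ankrd1, chr19:36119845-36120094, minus strand: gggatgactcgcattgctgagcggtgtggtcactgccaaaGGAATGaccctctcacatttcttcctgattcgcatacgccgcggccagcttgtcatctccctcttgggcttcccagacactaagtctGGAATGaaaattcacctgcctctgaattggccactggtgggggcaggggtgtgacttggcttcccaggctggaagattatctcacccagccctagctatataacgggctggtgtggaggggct
Srf, chr17:46556163-46556412, minus strand: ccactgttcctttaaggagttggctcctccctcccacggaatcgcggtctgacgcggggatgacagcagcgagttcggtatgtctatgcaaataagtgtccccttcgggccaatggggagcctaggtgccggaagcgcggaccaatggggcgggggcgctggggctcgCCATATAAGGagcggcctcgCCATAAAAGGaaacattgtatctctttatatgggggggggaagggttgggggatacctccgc
Vcl, chr14:20929148-20929397, plus strand: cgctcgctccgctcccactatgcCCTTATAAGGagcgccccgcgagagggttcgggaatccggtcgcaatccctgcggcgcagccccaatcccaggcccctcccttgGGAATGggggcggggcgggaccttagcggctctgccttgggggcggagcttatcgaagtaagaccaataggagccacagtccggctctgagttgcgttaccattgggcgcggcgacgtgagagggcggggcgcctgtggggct
In Cyr61 the capitals mark 1 TEAD match that begins 103 bases before the start, and in Ankrd1 they mark 2 TEAD matches at 210 and 123 bases. In Srf they mark 2 CArG boxes at 82 and 62 bases, and in Vcl a CArG box at 227 bases and a TEAD match at 143 bases. A TEAD match was present in 12.6% and a CArG box in 1.47% of 32851 promoter windows of this length. Yap1, Wwtr1, Amotl2 and Ajuba held TEAD matches too, and neither window of Lats2 held a match. The AP-1 motif TGANTCA, found on either strand in 6.75% of windows, was in none of the windows of these genes. A promoter of Ctgf was not used here.

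Every one of the 13 probes was well above background on all 4 arrays, so no value here is a bound and none was lost to a filter. Signals are background-corrected spot intensities, compared as log2 intensity minus the 75th percentile of the same array. A difference is given as Pyr (−) minus Pyr (+), or 15 mM minus 5 mM glucose, with the error that the scanner software assigns to the 2 spots. That error was 0.20 on the log2 scale for most probes and covers the reading of a spot, not the spread between cultures.

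**Figure D1:**
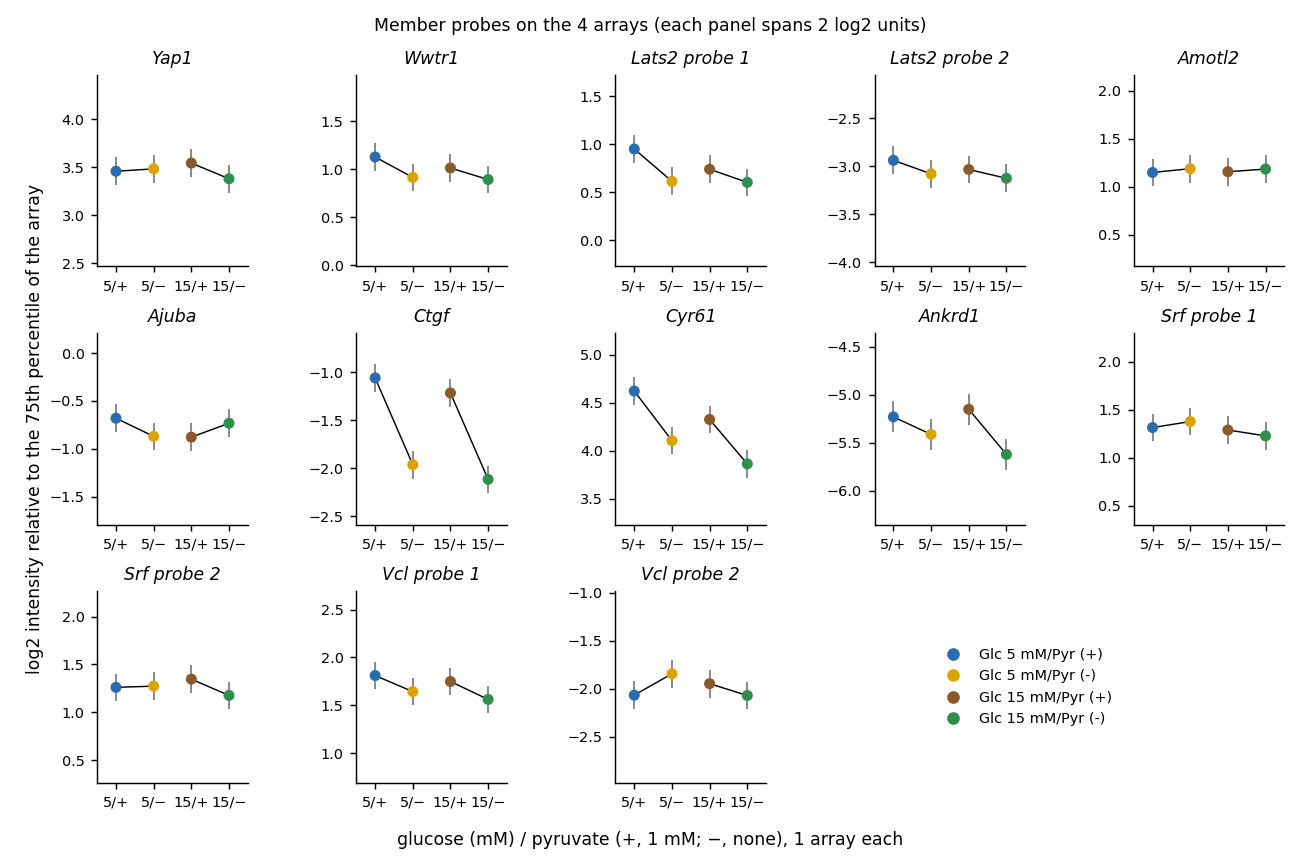
Log2 intensity relative to the 75th percentile of the array (y axis, log2 units) for the 13 probes of the 10 genes on the 4 arrays (x axis, glucose in mM and pyruvate), with the scanner error as bars and lines joining arrays of the same glucose concentration. The Ctgf and Cyr61 points without pyruvate lie below their partners at 5 mM and at 15 mM glucose, while Amotl2 spans 0.04 over the 4 arrays.

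All 4 arrays sat on 1 slide and went through 1 scan, so the position on the slide and the condition cannot be told apart. Between 28473 and 30347 probes were well above background on an array, the 75th percentile of intensity ran from 1597 to 1788, no spot was saturated, and the median SD between spots of a probe printed 10 times was 0.07 to 0.08 on the log2 scale. The label of the cells was set against marker lists. All 15 Schwann cell markers were well above background on every array, with a summed intensity of 80588 to 98866, although Erbb3 was dim. Of the fibroblast markers, 6 of 8 were above background on every array (summed intensity 97442 to 104049, with Col1a2 the brightest and Tcf21 on no array), as were 5 of 5 macrophage markers (2325 to 3173), 2 of 4 endothelial markers (4242 to 5715, Cdh5 on no array) and 3 of 5 neuron markers (5992 to 9714, Syt1 on no array). Single markers of other cell types moved between arrays, not in 1 direction. Cd68, of macrophages, read 969 with and 1817 without pyruvate at 15 mM glucose (0.88), while the other macrophage markers ran from -0.27 to 0.09. The neuronal markers Nefl (1.22) and Rbfox3 (1.18), both dim, were past 2-fold for 15 mM against 5 mM glucose without pyruvate. In that comparison the brightest neuron marker, Snap25, was lower (-0.52, from 8354 to 5470), and Tubb3 differed by 0.24. The part of these markers in the differences below was not tested.

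Yap1 encodes the coactivator YAP. Its probe read 19682 with and 19495 without pyruvate at 5 mM glucose, and 18648 with and 17011 without pyruvate at 15 mM glucose. After scaling, the 4 arrays lay within 0.16 of each other. Pyruvate removal differed by 0.02 ± 0.20 at 5 mM glucose and by -0.16 ± 0.20 at 15 mM glucose.

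Wwtr1 encodes TAZ, the paralogue of YAP. Its intensities were 3915, 3289, 3229 and 3035 in the same order of groups. The array with normal glucose and pyruvate was the highest. Without pyruvate it was at -0.21 ± 0.20 (log2, 5 mM) and -0.12 ± 0.20 (15 mM), in each case within 2 times the scanner error.

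Lats2 encodes a kinase that phosphorylates YAP and TAZ, and is itself a YAP target in a feedback loop. Its probe at transcript base 4823 read 3454, 2664, 2666 and 2476, and its probe at base 645 read 234, 206, 195 and 187. On each probe the [Glc 5 mM/Pyr (+)] array was the highest and the [Glc 15 mM/Pyr (−)] array the lowest. The mean over the probes differed by -0.24 ± 0.14 at 5 mM and -0.11 ± 0.14 at 15 mM glucose on the log2 scale.

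Amotl2 encodes an angiomotin-family scaffold that retains YAP outside the nucleus, and Ajuba encodes a LIM-domain protein that inhibits the LATS kinases. Amotl2 read 3964, 3966, 3559 and 3706, which after scaling is a range of 0.04 over the 4 arrays, the narrowest among the 13 probes. Its pyruvate differences were 0.04 ± 0.20 and 0.03 ± 0.20. Ajuba read 1117, 954, 870 and 983. Without pyruvate it differed by -0.19 ± 0.20 at 5 mM and 0.14 ± 0.20 at 15 mM glucose, of opposite sign and each smaller than its error. Amotl2, though a YAP target as Ctgf and Cyr61 are, showed no difference above the error of reading a spot.

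Ctgf (also Ccn2) encodes connective tissue growth factor, a matricellular protein and a much used readout of YAP. Its probe lies at chr10:24318281-24318340 in mm9, at base 2194 of the transcript by the array files. At 5 mM glucose its intensity was 858 with and 446 without pyruvate, and at 15 mM glucose 688 with and 376 without. The arrays without pyruvate were both lower than the arrays with it. On the scaled log2 level these are -1.06, -1.96, -1.22 and -2.12. At 5 and at 15 mM glucose the difference without pyruvate came to -0.90 ± 0.20 alike. The pyruvate comparisons at 5 and 15 mM glucose share no array, and the difference between them for Ctgf was 0.00 ± 0.29.

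Cyr61 (also Ccn1) encodes a second matricellular CCN protein, induced early by serum and by YAP. Its probe lies at chr3:145310187-145310246 in mm9, at base 1716 of the transcript. At 5 mM glucose it gave 44009 with and 29946 without pyruvate, and at 15 mM glucose 31997 with and 23717 without. The [Glc 5 mM/Pyr (−)] array was below each array with pyruvate, and [Glc 15 mM/Pyr (−)] was the lowest. On the scaled log2 level these are 4.62, 4.10, 4.32 and 3.86. The differences without pyruvate were -0.52 ± 0.20 and -0.46 ± 0.20. The Ctgf and Cyr61 differences exceeded 2 times the scanner error in each pyruvate comparison. The share of all genes past that mark was not computed. At 15 mM glucose Ankrd1 had a difference like that of Cyr61, -0.47 ± 0.24, with a larger error.

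Ankrd1 encodes a cardiac ankyrin repeat protein that shuttles between sarcomere and nucleus in muscle and responds strongly to YAP. Its probe, at chr19:36186809-36186868 in mm9, gave the dimmest signal of the 13, at 47.7, 40.9, 45.0 and 33.2, where the lowest signals well above background were 8.60 to 10.5. Pyruvate removal gave -0.18 ± 0.22 at 5 mM and -0.47 ± 0.24 at 15 mM glucose. With the normexp background correction these became -0.04 and -0.31.

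Srf encodes the transcription factor and Vcl encodes vinculin, which links integrin adhesions to actin. The Srf probes read 4454, 4529, 3909 and 3826, and 4289, 4213, 4065 and 3692. Their mean differed by 0.04 ± 0.14 at 5 mM and by -0.12 ± 0.14 at 15 mM glucose. Vcl read 6282, 5446, 5374 and 4821 on a probe at transcript base 4438, and 427, 485, 414 and 388 on a probe at base 3009. The Vcl probes had opposite signs at 5 mM glucose, -0.17 and 0.22, and the same sign at 15 mM glucose, -0.19 and -0.12. Averaged over its probes, Vcl differed by 0.03 ± 0.14 and -0.16 ± 0.14.

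**Figure D2:**
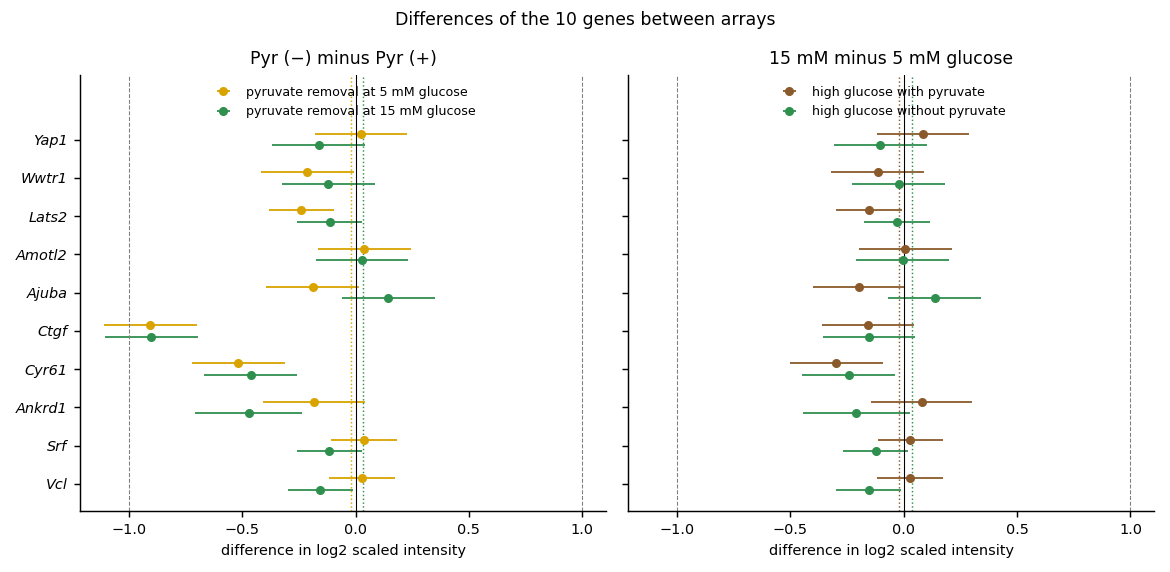
Log2 differences of the 10 genes (points, with the scanner error as bars) for pyruvate removal at 5 and 15 mM glucose (left) and for 15 mM against 5 mM glucose with and without pyruvate (right); the dotted lines are the medians of all genes and the dashed lines mark 2-fold. Ctgf at -0.90 is the lowest in each pyruvate comparison, followed at 5 mM glucose by Cyr61 (-0.52) and at 15 mM glucose by Ankrd1 (-0.47) and Cyr61 (-0.46), and no point passes a dashed line.

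Across the 10 genes, 0 passed 2-fold in the pyruvate comparison at 5 mM glucose, where 1.18% of 22949 genes did, and 0 passed it at 15 mM glucose, where 2.16% of 21885 genes did. At 1.5-fold, Ctgf was the single gene past the threshold in each comparison, lower without pyruvate, as were 1.83% and 3.66% of all genes. In either direction 3.45% and 6.76% of genes were past 1.5-fold. The median of the 10 was -0.19 at 5 mM and -0.14 at 15 mM glucose, beside medians of -0.02 and 0.03 over all genes, and 6 and 8 of the 10 were below 0, beside 56.3% and 43.0% of all genes. Without Ctgf and Cyr61 the medians of the remaining 8 were -0.08 and -0.12.

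Ctgf ranked 184 from the lowest of 22949 genes at 5 mM glucose and 346 of 21885 at 15 mM glucose, and Cyr61 ranked 546 and 1204. These ranks describe the values on which the genes were selected.

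**Figure D3:**
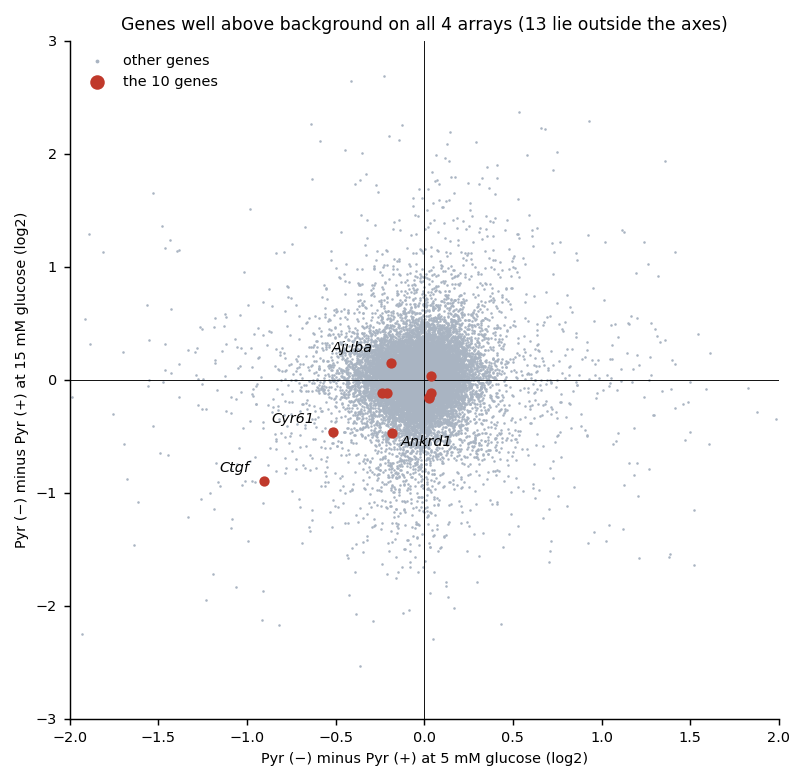
Log2 difference without pyruvate at 5 mM glucose (x axis) against that at 15 mM glucose (y axis) for the 21717 genes well above background on all 4 arrays (grey, 13 of them outside the axes), with the 10 genes in red. Ctgf lies near -0.90 on each axis, other genes lie as low, and Ajuba, at -0.19 and 0.14, lies close to the origin.

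The genes whose profile over the 4 arrays lay nearest to that of Ctgf were the unnamed probe A_55_P2053753, Bcl6b, Defb10, Dlgap3 and Gm11545, at root mean square distances of 0.04 to 0.09 log2 units. Their mean intensities were 26.2 to 102, beside 561 for Ctgf, so they were read from dimmer spots. Nearest to Cyr61 were LOC100047044, Itgb3, Ptger1, AW124847 and the unnamed probe A_55_P2178039, at 0.01 to 0.03. Their mean intensities were 22.6 to 94.5, beside 31624 for Cyr61, so they too were read from far dimmer spots. Itgb3, integrin beta 3, had differences of -0.53 and -0.44 at an intensity of 94.5. With 4 arrays such likeness is a description of these arrays.

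The glucose comparisons share arrays with the pyruvate comparisons, and their values are therefore set side by side. With pyruvate present, 15 mM against 5 mM glucose passed 2-fold for 0 of the 10 genes and for 1% of 22243 genes. Without pyruvate it did so for 0 of the 10 and for 2.46% of 22239 genes. At 1.5-fold these counts were 0 of the 10 in each, beside 3.33% and 7.41% of genes. Cyr61 had the lowest value in each, -0.30 ± 0.20 with pyruvate and -0.24 ± 0.20 without. Ctgf differed by -0.16 and -0.15 and Ankrd1 by 0.08 and -0.21. The values of the 10 genes had a median of -0.05 with pyruvate and -0.11 without, beside -0.02 and 0.04 for all genes. Of the 10, 5 were below 0 with pyruvate and 9 without, beside 55.5% and 43.5% of all genes. For Ctgf the glucose differences were smaller than its error of 0.20, except with spike-in scaling, where they became -0.45 with pyruvate and -0.31 without.

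Upstream of YAP, the list of Hippo kinases, scaffolds and regulators had 20 of 22 genes measured in each comparison, and none passed 2-fold or 1.5-fold in any of the 4. For pyruvate removal its medians were 0.01 (5 mM) and -0.01 (15 mM). Mob1a, the coactivator of the LATS kinases, had the value farthest from 0 at 5 mM glucose (0.52 ± 0.21) and Rassf1, a scaffold that activates the MST kinases, at 15 mM (0.44 ± 0.20). Of the TEAD factors and Vgll cofactors, 6 of 7 were measured on both arrays of each pyruvate comparison and 0 of these passed 2-fold. Their median was 0.05 at 5 mM and -0.25 at 15 mM glucose. Tead4 read 56.0, 53.6, 49.1 and 28.9, lowest in [Glc 15 mM/Pyr (−)], with a difference of -0.79 ± 0.24 at 15 mM glucose, and this dim probe ran from -0.83 to -0.48 over the other ways of processing. Vgll3, a cofactor of TEAD, differed by 0.21 at 5 mM and -0.48 at 15 mM. Vgll2, a further cofactor, was well above background in the arrays without pyruvate only, where it read 31.8 and 23.0, beside 2.20 and 2.64 with pyruvate. It was therefore at least 3.80-fold higher without pyruvate at 5 mM and at least 2.15-fold higher at 15 mM glucose, taking for the dim array the lowest signal well above background, or the probe's own signal where that is higher.

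Among 22 further YAP and TAZ target genes, the medians were -0.05 over 21 genes at 5 mM and -0.00 over 20 genes at 15 mM glucose. Gadd45a was past 2-fold and higher without pyruvate at 15 mM glucose, and 0 of the genes measured on both arrays were past it and lower in either comparison. Foxf2 and Dlc1 fell out of this count at 15 mM glucose because they were not well above background without pyruvate. Foxf2, a forkhead factor, read 20.4 with and 2.58 without pyruvate, at least 2.05-fold lower. It was well above background on this 1 array only, and read 2.18 with and 2.49 without pyruvate at 5 mM glucose. With pyruvate it was likewise at least 2.66-fold higher at 15 mM than at 5 mM glucose. Dlc1 read 24.1 with and 12.1 without pyruvate at 15 mM glucose, at least 2.04-fold lower. Gadd45a, a stress-induced gene of growth arrest, read 2721, 3754, 2809 and 6036, with differences of 0.50 ± 0.20 and 1.07 ± 0.20. Edn1, the precursor of endothelin, read 639, 390, 468 and 361, with differences of -0.67 ± 0.07 and -0.41 ± 0.07 from a probe printed 10 times. Edn1 was thus lower without pyruvate at each glucose concentration, as Ctgf and Cyr61 were, while the median target of the list lay near that of all genes. The other CCN family genes were measured for 2 of 4, Wisp1 with -0.06 and -0.12 and Wisp2 with 0.33 and -0.13.

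On the SRF side, all 25 MRTF-SRF cytoskeletal genes were measured and none passed 1.5-fold in either pyruvate comparison. Their medians were -0.04 and -0.05. Actg2, a smooth muscle actin, had the lowest values, -0.39 ± 0.20 and -0.37 ± 0.20, and Tgfb1i1, a focal adhesion protein also called Hic-5, the highest at 15 mM glucose with 0.45 ± 0.15, although its probes ran from 0.05 to 0.86. Of the SRF cofactors, 5 of 6 were measured and 0 passed 2-fold. The ternary complex factors Elk1 and Elk4 had the values farthest from 0, Elk1 with -0.34 ± 0.15 at 5 mM (its 2 probes at -0.58 and -0.10, the brighter at -0.10) and Elk4 with -0.20 ± 0.11 at 15 mM glucose, where the 4 Elk4 probes ran from -0.94 to 0.66.

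The immediate-early genes driven by SRF and the ternary complex factors respond within minutes to serum and stress, and 8 of 10 were measured. At 5 mM glucose, 8 of 8 measured genes were below 0 without pyruvate, beside 56.3% of all genes, with a median of -0.38. The same 8 were below 0 for 15 mM against 5 mM glucose with pyruvate (median -0.29), beside 55.5% of all genes. That comparison shares the [Glc 5 mM/Pyr (+)] array. For pyruvate removal at 15 mM glucose 6 of 8 were above 0 and 2 below, beside 43.0% of all genes below. The median of the 8 was 0.29, and Fos was past 2-fold. For 15 mM against 5 mM glucose without pyruvate 8 of 8 were above 0 (median 0.32), beside 43.5% of all genes below. The last 2 comparisons share the [Glc 15 mM/Pyr (−)] array. Fos, a subunit of AP-1, read 1070 with and 782 without pyruvate at 5 mM glucose, and 623 with and 3980 without at 15 mM glucose. Pyruvate removal thus gave -0.41 ± 0.07 at 5 mM and 2.65 ± 0.07 at 15 mM. Ier2 differed by 1.00 ± 0.20 at 15 mM, just under 2-fold, and by 1.13 for glucose without pyruvate. Egr2, which in Schwann cells directs myelination, had -0.58 ± 0.20 and -0.27 ± 0.20. Ctgf and Cyr61 were lower without pyruvate at each glucose concentration, while Fos was lower at 5 mM and higher at 15 mM glucose. A link between them was not tested.

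**Figure D4:**
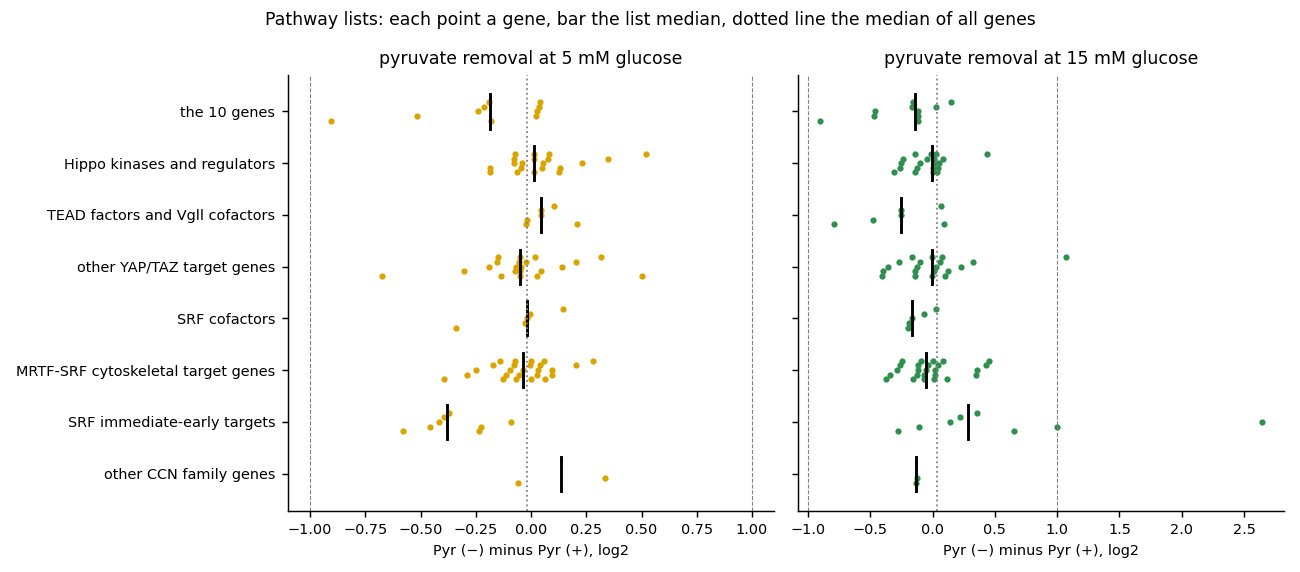
Log2 difference without pyruvate (x axis) for the genes of each pathway list measured on both arrays (points) at 5 mM glucose (left) and 15 mM glucose (right); bars are list medians, the dotted line is the median of all genes and dashed lines mark 2-fold. The bar of the SRF immediate-early targets lies at -0.38 on the left and 0.29 on the right, while that of the MRTF-SRF cytoskeletal genes lies at -0.04 and -0.05.

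Over the other ways of processing the arrays, the Ctgf difference ran from -1.07 to -0.81 at 5 mM and from -0.93 to -0.83 at 15 mM glucose. That of Cyr61 ran from -0.68 to -0.51 and from -0.49 to -0.45. Spike-in scaling gave the lowest values at 5 mM glucose, where it moved the median of all genes by -0.17, and relative to that median Ctgf ran from -0.90 to -0.83.

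**Figure D5:**
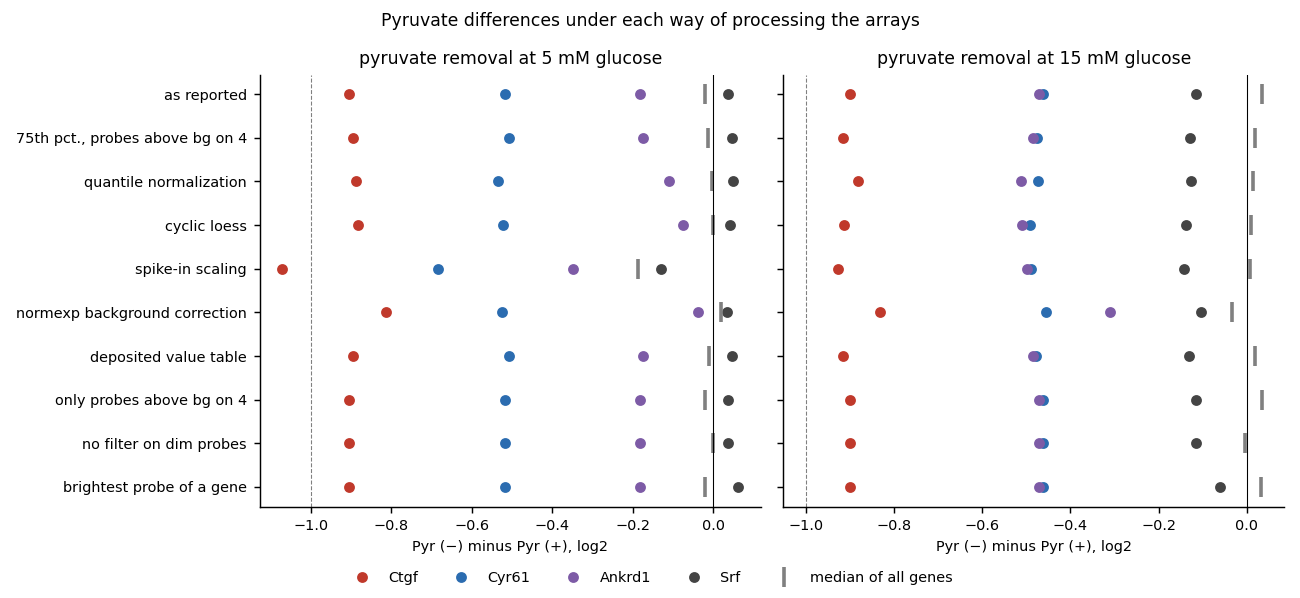
Log2 difference without pyruvate (x axis) of Ctgf, Cyr61, Ankrd1 and Srf under each way of processing (y axis) at 5 mM glucose (left) and 15 mM glucose (right), with the median of all genes as a grey bar and 2-fold as a dashed line. Ctgf and Cyr61 stay to the left of the grey bar in every row, and Ctgf passes 2-fold at 5 mM glucose with spike-in scaling.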

How the data were processed

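Gene expression was measured in IMS32 cells after 1 h on 4 single-colour arrays, 1 for each condition. The authors deposited the scanner output of Agilent Feature Extraction 11.5.1.1, whose processed intensity is background-corrected but not scaled between arrays. The authors' own value table, also deposited, is a ratio of that intensity to 1 constant for each array, within 1.11e-06. Its column medians were 0.0535 to 0.0566. The direction and scale are therefore known, and it served as an alternative. Probe coordinates, as the files give them, are in mm9.

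Controls and spots called outliers by the scanner software were removed, which dropped 11 probes, and the 75th percentile of each array was subtracted from log2 intensity. A gene is the mean over its probes that were well above background on both arrays of a comparison. Errors were propagated from the error model of the scanner software. With 1 array for each condition and genes chosen on these values, no test was made, and the number of arrays limits the precision. Counts past 2-fold are set beside the share of all genes.

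The genes and the pathway lists were chosen with earlier results of these data known. Named besides the 10 are the genes of each list past 2-fold in any comparison, in each list the gene farthest from 0 in a pyruvate comparison, and the 5 nearest in profile to Ctgf and to Cyr61. Some markers named are outside this rule, and some items are not reported here. Promoters came from the RefSeq table of GRCm38.p6, which gave 9 of the 10 genes.

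As alternatives, arrays were scaled by probes above background everywhere, by quantiles, by cyclic loess or by 9 of 10 spike-in probes. The normexp correction (offset 50), the authors' table, no filter or a stricter filter on dim probes, 1 probe for each gene (the brightest) and a threshold of 1.5-fold were also tried. Python 3.11.15 with numpy 2.4.6, pandas 2.3.3 and matplotlib 3.10.9, and limma 3.58.1 under R 4.3.3 were used. The fold count was tested on simulated data.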

Additional observations from a re-analysis of the deposited data

Results flagged for a closer look

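Ajuba differed in opposite directions without pyruvate at the glucose concentrations, by -0.19 ± 0.20 at 5 mM and by 0.14 ± 0.20 at 15 mM glucose, a gap of 0.33 ± 0.29 on the log2 scale from 1 array in each condition. The difference between the concentrations was not tested.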

How the results depend on the processing

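Of 360 values of the 10 genes under the alternatives, 36 moved by more than 0.11, the spread of a difference between spots, and 30 of those were with spike-in scaling. That scaling shifts the median of all genes by -0.17 for pyruvate at 5 mM, -0.03 at 15 mM, -0.30 for glucose with pyruvate and -0.16 without. The median of the 10 genes became -0.35 for pyruvate at 5 mM, -0.35 for glucose with pyruvate and -0.27 without, and 1 gene passed 2-fold at 5 mM, Ctgf with -1.07. With a 1.5-fold threshold 1 gene passed in each pyruvate comparison. No difference larger than 0.14 changed sign, and 10 of the 14 sign changes were with spike-in scaling. Taking the brightest probe turned Vcl to -0.17 at 5 mM glucose. Each condition has 1 array and the groups share only 1 replicate number, so no pairing by replicate was possible and no replicate could be left out. The pyruvate pairs at 5 and 15 mM glucose share no array, and their mean was -0.90 ± 0.14 for Ctgf and -0.49 ± 0.14 for Cyr61, given without a test because the genes were selected on these values. Signal over background limits Ankrd1 and Tead4, and also Vgll2, Foxf2 and Dlc1. The bounds of these last genes each come from 1 dim probe and were not computed under the alternatives.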
